A study of Mus musculus with 8 samples.

Results

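Aqp1, Atp13a3, Tbx4, Eif2ak4, Ggcx, Kcnk3, Tet2 and Abcc8 are the mouse counterparts of human genes in which variants have been linked to pulmonary arterial hypertension, outside the bone morphogenetic protein (BMP) and SOX families. They were taken by symbol from the count tables, and all 8 have a row among the 23238 distinct gene symbols. Of the 8, 7 had a count in at least 1 library, and 4 (Aqp1, Eif2ak4, Ggcx and Kcnk3) passed the low-count filter that 8282 genes of the whole series passed.

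The study profiled ribosome-bound RNA of lung endothelium from C57BL/6J mice, with 4 libraries in each of 2 groups. Control mice carried Cdh5-CreERT2, a tamoxifen-inducible recombinase driven by an endothelial promoter, and RPL22tm1.1Psam, the RiboTag allele that puts a haemagglutinin tag on a ribosomal protein once the recombinase has acted, and they breathed room air. The other mice carried the same alleles with Sox17fl/fl, so that endothelial cells lost the transcription factor Sox17, and they were kept in hypoxia. Tamoxifen (2 mg a day for 5 days) was given to both groups at 8 weeks of age, and exposure to either atmosphere ran for 3 weeks from the age of 10 weeks. Genotype and oxygen changed together, so their effects cannot be told apart. The labels do not say whether each library came from its own mouse, so part of the spread that the p-values rest on may be technical.

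The 8 genes have no pathway in common. Aqp1 encodes a water channel of endothelium and red cells, and Atp13a3 a P5-type ATPase that moves polyamines. Eif2ak4 encodes GCN2, a kinase that senses uncharged transfer RNA and phosphorylates the initiation factor eIF2alpha, and loss of its human counterpart causes pulmonary veno-occlusive disease. Ggcx encodes the vitamin K-dependent carboxylase that modifies Gla proteins. Kcnk3 encodes TASK-1, a background potassium channel of the tandem-pore family that is known from pulmonary artery smooth muscle and heart. Abcc8 encodes SUR1, a regulatory subunit of ATP-sensitive potassium channels. Tbx4 encodes a T-box transcription factor of lung mesenchyme, and Tet2 a dioxygenase that oxidises 5-methylcytosine.

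The promoter windows of the 3 filtered genes that have one in RefSeq (build GRCm38.p6) are printed because the comparison combines a lost SOX factor with low oxygen. Each runs 5′ to 3′ on the gene's strand, from 250 bases before to 50 bases after a transcription start. Capitals mark the hypoxia response core ACGTG or GCGTG on either strand. ACGTG is also contained in the E-box CACGTG. The Aqp1 window is chr6:55336049-55336348, the Ggcx window chr6:72414058-72414357 and the first Eif2ak4 window chr2:118388367-118388666, all on the plus strand.
Aqp1: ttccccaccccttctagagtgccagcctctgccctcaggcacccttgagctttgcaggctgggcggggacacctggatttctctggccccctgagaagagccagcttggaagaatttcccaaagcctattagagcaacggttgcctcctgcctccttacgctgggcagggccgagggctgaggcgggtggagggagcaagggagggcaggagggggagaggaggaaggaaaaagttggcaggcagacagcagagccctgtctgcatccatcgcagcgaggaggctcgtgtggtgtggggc
Ggcx: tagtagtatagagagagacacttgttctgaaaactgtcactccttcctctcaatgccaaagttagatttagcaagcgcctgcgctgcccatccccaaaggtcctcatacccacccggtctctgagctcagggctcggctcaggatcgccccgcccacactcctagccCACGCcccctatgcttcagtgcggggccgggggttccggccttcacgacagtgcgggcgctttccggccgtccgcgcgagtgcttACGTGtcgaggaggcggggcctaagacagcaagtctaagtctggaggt
Eif2ak4: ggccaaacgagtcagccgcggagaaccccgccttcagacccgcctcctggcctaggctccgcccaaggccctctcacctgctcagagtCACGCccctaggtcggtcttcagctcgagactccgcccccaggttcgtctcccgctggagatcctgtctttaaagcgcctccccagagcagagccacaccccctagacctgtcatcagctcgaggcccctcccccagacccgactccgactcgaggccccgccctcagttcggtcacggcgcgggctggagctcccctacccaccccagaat
The Aqp1 window holds neither form of the hypoxia core, the Ggcx window holds 1 of each, and the Eif2ak4 window holds 1 GCGTG, read on the other strand. Among all 32851 windows of this length, 43.8% hold at least 1 of the 2 forms. The SOX core ACAAT, also searched on both strands, is in none of the 6 windows that the table has for 5 of the 8 genes, and is in 31.0% of all windows. These are matches of letters in 300 bases and say nothing on binding.

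Each library held between 7000313 and 12913304 counts. Levels are counts-per-million (CPM) of the library total, and the floor of 3 counts used here for a level apart from 0 stands for 0.232 to 0.429 CPM. Sox17, the deleted gene, was at 205 to 291 CPM in the controls and at 36.6, 3.28, 0.857 and 3.67 CPM in the Sox17-deletion/hypoxia libraries. All 12 endothelial markers were detected in the series, and their sum was 8667 ± 457 CPM in the control group and 8893 ± 1963 CPM in Sox17-deletion/hypoxia (SD, n = 4, exact permutation p = 0.857). Of the 12, 5 had a higher mean in Sox17-deletion/hypoxia, with Egfl7, the most abundant, at 1883 ± 226 and 2812 ± 1418 CPM. The 7 others had a lower mean, among them Erg (248 ± 47.0 and 112 ± 89.6 CPM) and Cdh5 (755 ± 119 and 523 ± 80.5 CPM). Fewer genes had a count in the Sox17-deletion/hypoxia libraries, 8019 to 8708 against 9821 to 10429 (two-sided exact permutation p = 0.0286, the lowest value possible with 4 libraries in each group). Of the 10 marker lists, those of alveolar type 2, club and ciliated, and fibroblast cells did not overlap between the groups and were higher in the Sox17-deletion/hypoxia libraries. The alveolar type 2 markers summed to 962 to 1285 CPM against 2050 to 4048 CPM, the club and ciliated ones to 1980 to 2872 against 4360 to 7124 CPM, and the fibroblast ones to 624 to 858 against 874 to 9453 CPM. Most of the fibroblast difference is Gsn, at means of 322 ± 108 and 2679 ± 3707 CPM. Of the 12 fibroblast markers 8 had a higher mean and 4 a lower one, with Col1a1 at 36.5 and 8.07 CPM and Dcn at 63.0 and 43.9 CPM. The neural and neuroendocrine list did not overlap either and was lower, at 39.2 to 80.3 against 0.0774 to 9.41 CPM. Each of these 4 has an exact permutation p of 0.0286 and an adjusted p of 0.0714 over the 10 lists.

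No risk gene passed the test between the groups. EdgeR's quasi-likelihood test gave adjusted p values of 1.00 for all 4 filtered genes, and none of their groups was separated without overlap. The same test called 0 of 8282 genes (0%) at an adjusted p of 0.05 and 424 (5.12%) at an unadjusted p of 0.05, none of them a risk gene. DESeq2 called 473 genes. Over the same 8282 genes as edgeR, limma-voom called 44 and limma-voom with quality weights 14. No risk gene was among the calls of any tool. Both limma-voom fits kept the filter, so only the 4 filtered risk genes could be called there. DESeq2 gave no adjusted p for Tet2 or Abcc8, so these could not be called either. Without a filter edgeR called 17 of 14071 genes (0.121%), again with no risk gene among them, and 1605 (11.4%) had an unadjusted p under 0.05. Groups without overlap were found for 6.59% of tested genes, with 1.63% higher and 4.96% lower in Sox17-deletion/hypoxia. The lack of a call is not evidence that the levels were alike, since the intervals given below are wide.

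**Figure D1:**
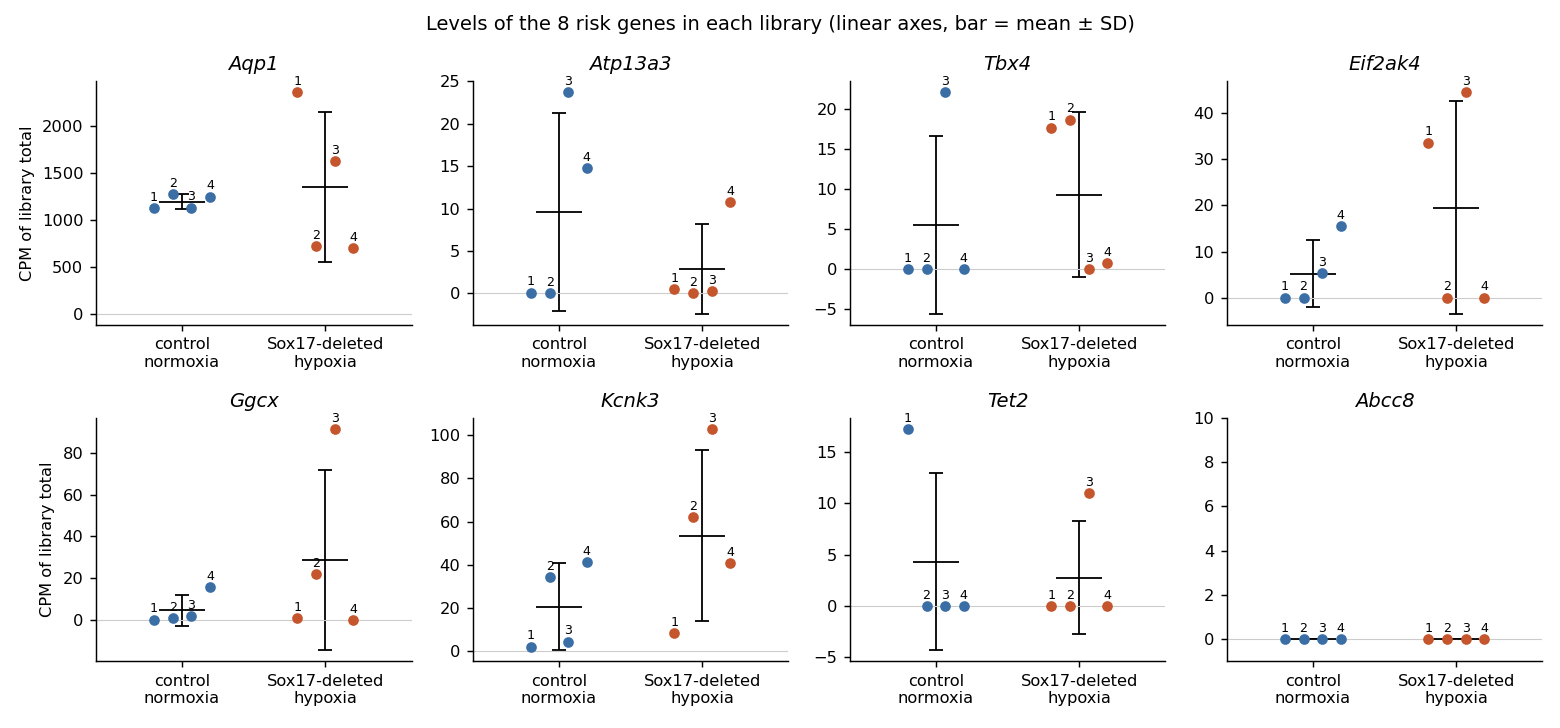
Each panel shows 1 risk gene, with a point for each library (numbered 1 to 4 within its group), its level in CPM of the library total on a linear axis, and a bar for the mean ± SD of 4 libraries. The groups overlap in every panel with counts, and Abcc8 is at 0 in all 8 libraries.

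Aqp1 (ENSMUSG00000004655, chromosome 6, 55336432 to 55348555, plus strand, GRCm38) was abundant in every library, with a lowest count of 6774. It stood at 1125, 1270, 1128 and 1246 CPM in the control libraries. In the Sox17-deletion/hypoxia libraries it stood at 2359, 717, 1625 and 696 CPM. Libraries 1 and 3 of that group lay above all controls, and libraries 2 and 4 below all controls. The means were 1192 ± 76.5 and 1349 ± 800 CPM (SD, n = 4), with a log2 fold change of 0.22 (SE 0.40, edgeR adjusted p = 1.00). An interval of 2 SE on either side runs from -0.58 to 1.03 on the log2 scale, so neither a moderate decrease nor a doubling is outside it. Without Sox17-deletion/hypoxia library 1 the log2 fold change was -0.13.

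The spread of Aqp1, rather than its mean, set the groups apart by eye. Its coefficient of variation was 0.0641 in controls and 0.593 in Sox17-deletion/hypoxia libraries. Among the 300 genes of highest mean level, 4.67% had a smaller coefficient in controls and 80.0% had a smaller one in Sox17-deletion/hypoxia. The coefficient was the larger in Sox17-deletion/hypoxia for 90.3% of those 300 genes, with medians of 0.164 and 0.390, so a wider spread there was general. As a percentage of the summed endothelial markers, Aqp1 was 12.7, 15.6, 12.3 and 14.7 in controls and 24.4, 7.92, 15.2 and 11.3 in Sox17-deletion/hypoxia libraries (means 13.8 ± 1.59 and 14.7 ± 7.11, exact permutation p = 0.886). Within the Sox17-deletion/hypoxia group, libraries 1 and 3 were the highest on both scales. Red cells also carry Aqp1, and the 9 erythroid markers summed to 1458 to 2551 CPM in controls and to 891, 3323, 505 and 222 CPM in Sox17-deletion/hypoxia libraries 1 to 4. The part of red cells in the Aqp1 values was not tested.

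**Figure D2:**
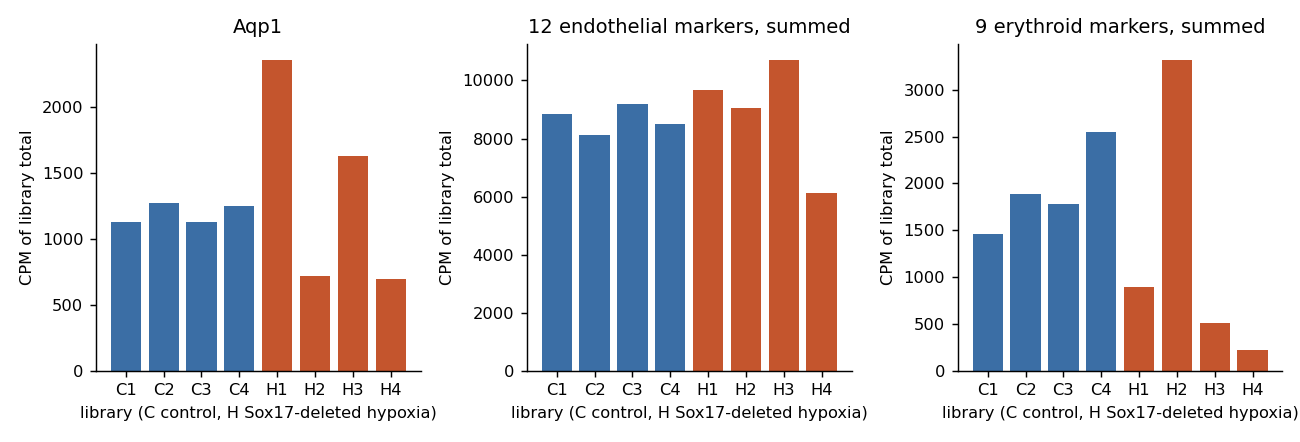
Bars give, for each of 8 libraries (C1 to C4 control, H1 to H4 Sox17-deletion/hypoxia), the CPM of the library total for Aqp1, for the sum of 12 endothelial markers and for the sum of 9 erythroid markers. Aqp1 is highest in H1 at 2359 CPM and lowest in H4 at 696 CPM, while the erythroid sum is highest in H2 at 3323 CPM.

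The genes closest to Aqp1 in pattern over the 8 libraries, among the 1640 other genes of highest mean level, were Lrg1 (Pearson r = 0.92 and Spearman rho = 0.93 on the log2(CPM + 1) scale) and Hspb1 (r = 0.90 and rho = 0.90). Lrg1, which encodes a secreted leucine-rich glycoprotein of inflamed endothelium, was at 547 to 660 CPM in controls and at 1687, 493, 717 and 394 CPM in Sox17-deletion/hypoxia. These likenesses share library and depth, were picked as the highest of many, and are a description. Of 11 aquaporin genes listed, 7 had a count, and only Aqp1 and Aqp5 passed the filter. Aqp5, the water channel of alveolar type 1 epithelium, was at 3.60, 0, 18.6 and 38.4 CPM in controls and at 38.8, 90.2, 82.3 and 54.4 CPM in Sox17-deletion/hypoxia libraries, without overlap (log2 fold change 2.18, SE 1.59, edgeR adjusted p = 1.00). The alveolar type 1 markers, of which Aqp5 is one, summed to 1395 ± 123 and 1356 ± 159 CPM (exact permutation p = 0.714). Of these 8 markers 6 had a higher mean in Sox17-deletion/hypoxia, among them Ager (176 ± 2.76 and 330 ± 59.0 CPM), whereas Clic5, the most abundant, was at 802 ± 117 and 459 ± 182 CPM. The part of these cells in the Aqp5 values was not tested.

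Kcnk3 (ENSMUSG00000049265, chromosome 5, 30588170 to 30625271, plus strand) was the other risk gene with at least 10 counts in every library. It stood at 2.18, 34.3, 4.47 and 41.2 CPM in controls and at 8.29, 61.9, 103 and 40.8 CPM in Sox17-deletion/hypoxia libraries. Controls 1 and 3 and Sox17-deletion/hypoxia library 1 were low, and the other 5 libraries were above 30 CPM, so that low and high libraries occurred in both groups. The means were 20.6 ± 20.1 and 53.5 ± 39.6 CPM, and the log2 fold change was 1.43 (SE 1.43, edgeR adjusted p = 1.00). An interval of 2 SE on either side runs from -1.43 to 4.29. Without Sox17-deletion/hypoxia library 3 the log2 fold change was 0.78.

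The markers of the cells in which Kcnk3 is best known varied too. Smooth muscle and pericyte markers summed to 76.5, 93.7, 88.9 and 167 CPM in controls and to 96.2, 365, 89.9 and 608 CPM in Sox17-deletion/hypoxia libraries. Most of that difference is Myh11 (means 27.0 and 195 CPM), and of the 12 markers 7 had a higher mean and 5 a lower one, the lower ones including Acta2 (22.7 and 18.7 CPM) and Tagln (21.1 and 8.98 CPM). Cardiomyocyte markers summed to 24.5, 47.7, 27.1 and 13.0 CPM in controls and to 39.7, 194, 93.4 and 339 CPM, with Nppa and Sln at 0 throughout. Nearly all of that difference is Myh6 (means 4.18 and 137 CPM), and of the 7 markers detected 3 had a higher mean and 4 a lower one. The part of these cells in the Kcnk3 values was not tested. In bulk RNA, fewer cells of a type and less RNA per cell cannot be told apart. The gene most like Kcnk3 over the 8 libraries was Ist1 (r = 0.93, rho = 0.88), an endosomal sorting gene, followed by the proton pump subunit gene Atp6v1f (r = 0.87, rho = 0.81).

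Of the 14 tandem-pore channel genes, 5 had a count in any library and only Kcnk3 and Kcnk6 passed the filter. Kcnk6, which encodes the channel TWIK-2, stood at 39.0, 22.0, 55.5 and 22.5 CPM in controls. It had 0 counts in 3 Sox17-deletion/hypoxia libraries and 5.00 CPM in library 3, so its groups did not overlap (edgeR unadjusted p = 0.0965, adjusted p = 1.00). Of all genes tested, 4.96% were lower without overlap. For genes with a mean of 10 to 20 CPM, as Kcnk6 has, 50.3% of Sox17-deletion/hypoxia values were 0 or 1 count, against 25.9% in controls. The part of that in the Kcnk6 values was not tested. Kcnk3 and Kcnk6 had fold changes of opposite sign, and the difference between them was not tested.

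Abcc8 (ENSMUSG00000040136, chromosome 7, 46104523 to 46180033, minus strand) had 0 counts in all 8 libraries. Over the pooled counts this allows a level of up to 0.0350 CPM, a limit that covers counting error only. The pore subunit gene Kcnj11, its usual partner, was at 0 in all libraries as well. The vascular form of the channel was barely seen: Kcnj8, its pore subunit, had 373 and 101 counts in control libraries 2 and 4 and 0 in the other 6 libraries. Abcc9, the vascular regulatory subunit SUR2, had 27 counts in control library 1 alone. None of the 4 genes of this channel family passed the filter.

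Eif2ak4 (ENSMUSG00000005102, chromosome 2, 118388618 to 118475234, plus strand) was present in some libraries of each group and absent from the others. Its counts were 0, 0, 62 and 184 in controls and 434, 0, 312 and 0 in Sox17-deletion/hypoxia libraries. In CPM the libraries with counts held 5.33 and 15.5 in controls and 33.6 and 44.6 in Sox17-deletion/hypoxia. The means were 5.20 ± 7.30 and 19.5 ± 23.0 CPM, and the log2 fold change was 2.04 (SE 2.75, edgeR adjusted p = 1.00). An interval of 2 SE on either side runs from -3.46 to 7.54, so no direction can be read. Without Sox17-deletion/hypoxia library 3 the log2 fold change was 1.16, and without control library 4 it was 3.62. The 3′ end of Eif2ak4 lies 615 bases from that of Srp14, a signal recognition particle gene on the minus strand, which ranged from 127 to 424 CPM (controls) and from 33.4 to 403 CPM in Sox17-deletion/hypoxia. No source used here gives the strand setting of the counting, so reads past either 3′ end could be assigned to the other gene. Its nearest pattern was that of Ik (r = 0.92, rho = 0.84), a spliceosome gene, and next Cdk2ap1 (r = 0.92, rho = 0.94).

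The 3 other eIF2alpha kinases sense other stresses. Eif2ak1, the haem-regulated kinase, had 76.9 ± 36.7 CPM in the control group and 61.1 ± 77.2 CPM in Sox17-deletion/hypoxia (log2 fold change -0.31, SE 1.37). Eif2ak2, the double-stranded RNA kinase PKR, was at 28.6, 21.6, 27.2 and 16.9 CPM in controls and at 0.0774, 1.27, 2.29 and 0 CPM in Sox17-deletion/hypoxia, without overlap. It is named here because of these values, and it missed the threshold in edgeR (log2 fold change -4.61, SE 2.32, adjusted p = 1.00) and in DESeq2 (adjusted p = 0.0504). Fewer genes had a count in the same libraries, and the part of that in the Eif2ak2 values was not tested. Eif2ak3, the endoplasmic reticulum kinase PERK, was at 15.8 ± 20.1 and 14.7 ± 16.7 CPM.

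Downstream of the kinases nothing passed either. Of 7 tested genes of the kinase and phosphatase list, Eif2ak4 included, 2 were higher and 5 lower, with a median log2 fold change of -0.31 beside -0.0088 over all genes tested. Of 9 tested genes of the list of ATF4 targets, which the integrated stress response induces, Atf4 included, 4 were higher and 5 lower (median -0.16). The transcription factor gene Atf4 was at 241 ± 77.2 and 235 ± 121 CPM, the stress factor gene Ddit3 at 64.3 ± 33.4 and 53.9 ± 45.3 CPM, and Ddit4 at 344 ± 100 and 303 ± 59.2 CPM. The amino acid transporter subunit gene Slc3a2 was at 1055 ± 164 and 661 ± 662 CPM. The phosphatase subunit genes Ppp1r15a (151 ± 31.7 and 113 ± 73.6 CPM) and Ppp1r15b (90.7 ± 37.8 and 55.0 ± 33.8 CPM) and the GCN2 activator gene Gcn1l1 (14.5 ± 11.5 and 25.4 ± 33.3 CPM) also overlapped between the groups.

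Ggcx (ENSMUSG00000053460, chromosome 6, 72414308 to 72430712, plus strand) had 1, 8, 21 and 188 counts in controls and 13, 206, 641 and 0 counts in Sox17-deletion/hypoxia libraries. In CPM these are 0.0946, 0.723, 1.80 and 15.8 against 1.01, 21.8, 91.6 and 0. The highest and the lowest library were both Sox17-deletion/hypoxia, and library 3 of that group held 68.9% of the sum of the 8 CPM values. The means were 4.61 ± 7.51 and 28.6 ± 43.2 CPM, with a log2 fold change of 2.76 (SE 2.45, edgeR adjusted p = 1.00). An interval of 2 SE on either side runs from -2.13 to 7.65. Without Sox17-deletion/hypoxia library 3 the log2 fold change was 0.66, and without control library 4 it was 5.17. The nearest patterns were those of Pja2 (r = 0.92, rho = 0.79), a ubiquitin ligase gene, and Gkap1 (r = 0.90, rho = 0.86).

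Other genes of the vitamin K cycle showed no call. Of 6 tested, Ggcx included, 4 were higher and 2 lower (median log2 fold change 0.96). Vkorc1, which encodes the epoxide reductase that warfarin blocks, was at 87.8 ± 40.6 and 57.0 ± 30.6 CPM. Calu, whose product calumenin inhibits the carboxylase, was at 180 ± 31.3 and 165 ± 197 CPM. Aifm2, which encodes a vitamin K reductase, was at 9.33 ± 7.29 and 36.3 ± 36.9 CPM. Among the substrates, 5 Gla protein genes were tested, 4 higher and 1 lower (median 0.33). Mgp, the matrix Gla protein gene that restrains vascular calcification, was at 783 ± 37.3 and 982 ± 325 CPM (log2 fold change 0.33, SE 0.31, edgeR adjusted p = 1.00). The ligand gene Gas6 was at 157 ± 50.6 and 246 ± 207 CPM, the protein S gene Pros1 at 129 ± 26.4 and 112 ± 76.0 CPM, and the transmembrane Gla gene Prrg2 at 28.7 ± 17.9 and 33.7 ± 26.6 CPM.

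Atp13a3 (ENSMUSG00000022533, chromosome 16, 30312423 to 30405975, minus strand) did not pass the filter. Its counts were 1, 0, 276 and 175 in controls and 6, 0, 2 and 120 in Sox17-deletion/hypoxia libraries. The 3 libraries with over 100 counts held 23.7 and 14.7 CPM in controls and 10.8 CPM in Sox17-deletion/hypoxia, and the other 5 were below 0.5 CPM. Without a filter, edgeR gave a log2 fold change of -1.77 (SE 3.38, adjusted p = 0.969). The value was -0.81 without control library 3 and -5.08 without Sox17-deletion/hypoxia library 4.

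Among its relatives, Atp13a1, the P5A-type ATPase of the endoplasmic reticulum, had 53, 693, 593 and 32 counts in controls, and 0, 0, 1 and 1 in Sox17-deletion/hypoxia libraries. The groups did not overlap, and the edgeR unadjusted p was 0.00728 with an adjusted p of 0.400. DESeq2 called this gene (adjusted p = 1.97e-05), and its adjusted p lay between 1.97e-05 and 0.914 under the 16 alternatives. Fewer genes had a count in the same libraries, and the part of that in the Atp13a1 values was not tested. Atp13a2, the lysosomal polyamine exporter gene, was at 152 ± 107 and 77.6 ± 93.8 CPM, and Atp13a4 and Atp13a5 were at 0 throughout. Of 12 tested polyamine genes, 6 were higher and 6 lower (median log2 fold change -0.12). They include Eif5a, the factor that carries the polyamine-derived hypusine (678 ± 113 and 407 ± 269 CPM), Oaz2 (423 ± 125 and 434 ± 138 CPM), Azin1 (94.5 ± 57.6 and 156 ± 86.3 CPM) and Sat1 (132 ± 48.5 and 108 ± 78.6 CPM).

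Tbx4 (ENSMUSG00000000094, chromosome 11, 85886422 to 85916097, plus strand) had 258 counts in control library 3 and 0 in the other 3 controls. In Sox17-deletion/hypoxia libraries it had 229, 177, 0 and 9 counts, or 17.7, 18.7, 0 and 0.806 CPM, beside 22.2 CPM in the control with counts. Libraries of both groups were thus at 0 and near 20 CPM. Without a filter, edgeR gave a log2 fold change of 0.74 (SE 3.24, adjusted p = 1.00), and without control library 3 it gave 9.59, against a group then all at 0. Tbx4 is known from mesenchyme, and fibroblast markers summed to 1054, 2625, 874 and 9453 CPM in the 4 Sox17-deletion/hypoxia libraries, a sum that is mostly Gsn. Of the 12 fibroblast markers 8 had a higher mean in Sox17-deletion/hypoxia and 4 a lower one. The lower ones include Tcf21, another transcription factor gene of lung mesenchyme. Tcf21 was at 8.39 ± 15.8 CPM in controls and at 0 in all 4 Sox17-deletion/hypoxia libraries. It was at 0 in 6 libraries in all, some of them controls, and did not pass the filter. The part of these cells in the Tbx4 values was not tested.

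Tbx2 and Tbx3, neighbours of Tbx4 in the T-box family, were present in every library. Tbx2 was at 269 ± 50.0 and 297 ± 32.7 CPM (log2 fold change 0.16, SE 0.34). Tbx3 was at 655, 974, 990 and 1028 CPM in controls and at 602, 594, 703 and 442 CPM in Sox17-deletion/hypoxia libraries (log2 fold change -0.60, SE 0.31, edgeR unadjusted p = 0.0696, adjusted p = 1.00). Control library 1 lay among the Sox17-deletion/hypoxia values, and the other controls lay above all of them. Tbx5, a partner of Tbx4 in lung budding, was at 3.88, 0, 11.4 and 0 CPM in controls and at 0, 42.9, 0 and 69.4 CPM in Sox17-deletion/hypoxia.

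Tet2 (ENSMUSG00000040943, chromosome 3, 133463679 to 133545139, minus strand) had 182 counts in control library 1, 77 counts in Sox17-deletion/hypoxia library 3, and 0 in the other 6 libraries. These are 17.2 and 11.0 CPM. Without a filter, edgeR gave an adjusted p of 1.00, and the log2 fold change of -0.49 (SE 3.54) took the sign of whichever library was kept. Tet1 had 86 and 5 counts in Sox17-deletion/hypoxia libraries 2 and 3 and 0 elsewhere. Tet3 was the only TET gene to pass the filter, at 44.9 ± 17.8 and 98.4 ± 118 CPM (log2 fold change 1.09, SE 1.00). Without Sox17-deletion/hypoxia library 4 it was -0.14. Of 8 tested genes for DNA methylation and its removal, 6 were higher and 2 lower (median 0.75), with no call. The isocitrate dehydrogenase genes, whose product 2-oxoglutarate the TET enzymes consume, were at 72.0 ± 24.4 and 111 ± 85.7 CPM (Idh1), 85.7 ± 27.1 and 164 ± 74.2 CPM (Idh2), and 52.9 ± 19.0 and 84.8 ± 70.8 CPM (Idh3a).

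**Figure D3:**
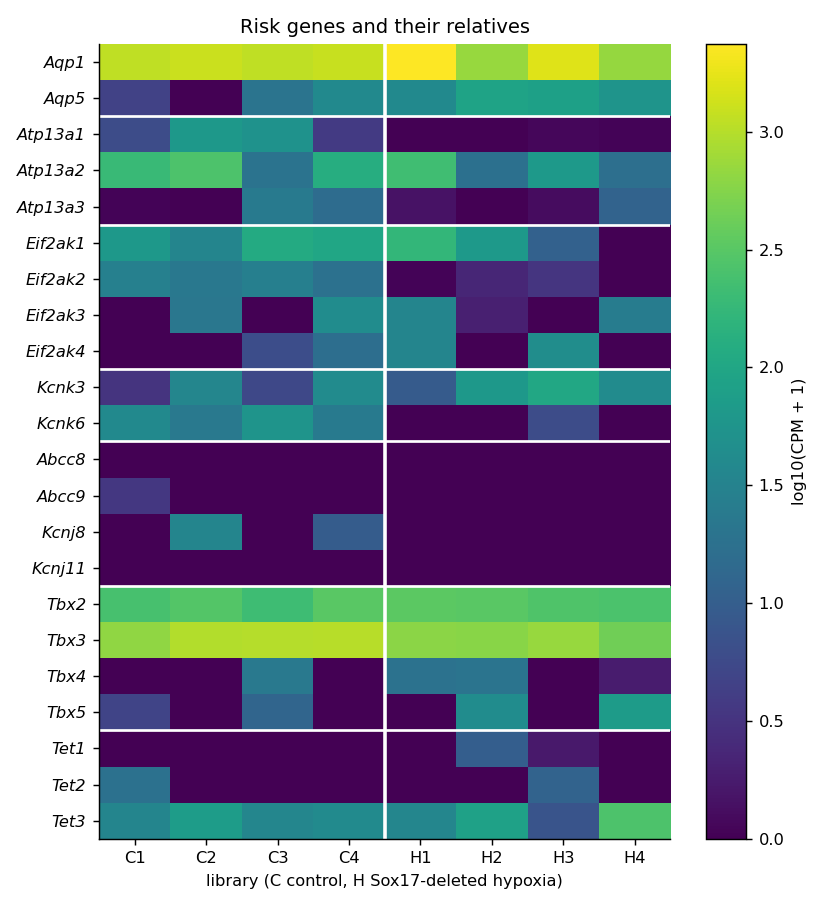
Colour gives log10(CPM + 1) for the risk genes other than Ggcx, with relatives from their families (rows), in 8 libraries (columns C1 to C4 control, H1 to H4 Sox17-deletion/hypoxia). Ggcx and the genes of the vitamin K cycle are not shown. Aqp1, Tbx2 and Tbx3 are present in every library, whereas Atp13a3, Eif2ak4, Tbx4 and Tet2 are at or near 0 in some libraries of both groups.

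Presence in some libraries and absence in others was common at these levels. Of all genes with a mean of 10 to 20 CPM, as Eif2ak4 and Ggcx have, 25.9% of values in control libraries and 50.3% in Sox17-deletion/hypoxia libraries were 0 or 1 count. At 5 to 10 CPM, where Atp13a3 and Tbx4 lie, the shares were 45.7% and 67.5%. Among the 300 genes of highest mean level they were 0% in both groups. The number of libraries with 0 or 1 count was 4 of 8 for Eif2ak4 and Tbx4, 3 for Atp13a3, 2 for Ggcx, 6 for Tet2 and 0 for Aqp1 and Kcnk3.

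**Figure D4:**
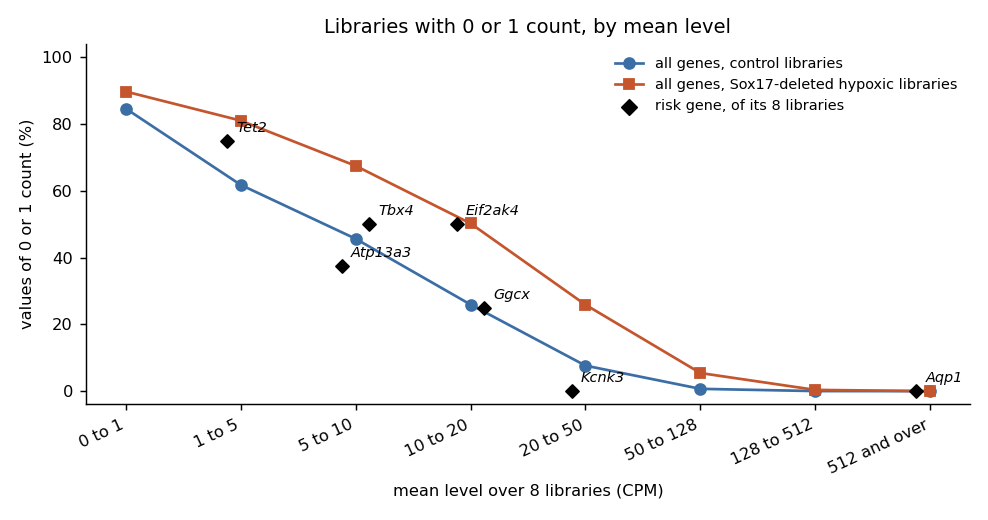
Lines give the share of values that are 0 or 1 count, over all genes in each range of mean CPM (horizontal axis), in control and in Sox17-deletion/hypoxia libraries, and diamonds give that share over the 8 libraries of each risk gene. The share falls with level in both groups. Kcnk3, at 0%, lies below both lines for its level (7.65% in controls and 25.9% in Sox17-deletion/hypoxia). Atp13a3 also lies below both (45.7% and 67.5%), and Ggcx lies just below the control line. Aqp1, Eif2ak4, Tbx4 and Tet2 lie on or between the lines.

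Over the alternatives run for each gene, the adjusted p of the risk genes ran from 0.894 to 1.00 for Aqp1, from 0.901 to 1.00 for Eif2ak4, from 0.595 to 1.00 for Ggcx and from 0.653 to 1.00 for Kcnk3. It ran from 0.664 to 1.00 for Atp13a3, from 0.574 to 1.00 for Tbx4 and from 0.486 to 1.00 for Tet2. Aqp1 had the narrowest interval, and the 6 others had a standard error above 1.4 on the log2 scale.

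**Figure D5:**
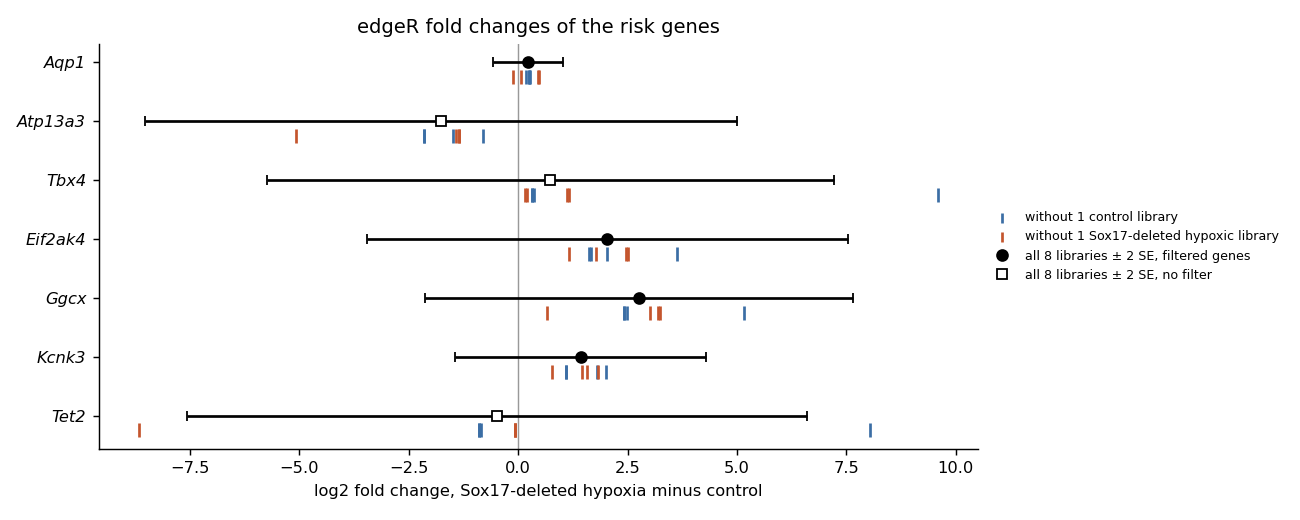
Black symbols give the edgeR log2 fold change (Sox17-deletion/hypoxia minus control, horizontal axis) of 7 risk genes with 2 SE on either side, filled for genes that passed the low-count filter and open for genes fitted without it, and ticks give the values with 1 library left out. Every interval spans 0, and for Tet2 the ticks reach from -8.67 to 8.03.

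Among 12 other human risk or candidate genes listed, mostly of the BMP and SOX families, 8 were tested, with 1 higher and 7 lower in Sox17-deletion/hypoxia (median log2 fold change -0.78, beside -0.0088 over all genes tested). Of the 8, 3 were lower without overlap, namely Sox17, Bmpr2 and Eng, beside 4.96% of all genes tested, and both tallies include the deleted gene Sox17. Bmpr2, the BMP type II receptor gene, was at 1019 ± 382 and 541 ± 240 CPM (log2 fold change -0.90, SE 0.39), and Eng, the endoglin gene, at 452 ± 84.1 and 189 ± 103 CPM (-1.21, SE 0.46). The caveolin gene Cav1 (882 ± 208 and 551 ± 109 CPM), the BMP receptor gene Acvrl1 (795 ± 74.0 and 676 ± 137 CPM) and the VEGF receptor gene Kdr (1089 ± 148 and 985 ± 415 CPM) overlapped. None passed edgeR's adjusted p, which was 0.855 for Bmpr2, 0.684 for Eng and 0.346 for Sox17. DESeq2 called Sox17 (adjusted p = 0.000300).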

How the data were processed

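Ribosome-bound RNA was immunoprecipitated from lung and made into QuantSeq 3′ libraries, per the labels' protocols. These kits read each transcript once near its end, so CPM was not divided by length. The authors deposited whole-number counts per gene symbol, 1 table per library, not normalized. Bowtie2, bedtools and mm10 are named in the submitters' processing notes, and versions, strand, duplicates and multiple matches are not given in the sources used here. Summing 44 duplicate rows, none of a risk gene, left 23238 symbols. No library pair agreed within counting noise (chi-square over degrees of freedom at least 191), so all 8 were kept.

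Levels are CPM of the library total. Groups, taken from the titles, were compared in R 4.3.3 with edgeR 4.0.16 (TMM factors, filterByExpr, group alone, quasi-likelihood F test, Benjamini-Hochberg over 8282 genes), and 3 genes below the filter were read from a fit of 14071 genes. Abcc8, with no count, could not be fitted. SE is the log2 fold change divided by the square root of F. Alternatives used limma 3.58.1, DESeq2 1.42.0, other factors, filters and left-out libraries. Scripts were tested on simulated data. Positions come from GENCODE M21 (GRCm38), promoters from RefSeq. Named relatives are up to 4 of each list with the highest mean among tested genes, beside genes whose groups did not overlap or relatives of a risk gene, chosen after their values were seen. The genes and lists were chosen with earlier results of these data known. Values of 1 related gene and 1 marker are not reported here.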

Additional observations from a re-analysis of the deposited data

Results flagged for a closer look

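Within groups of 4 libraries, 13 of 110 group values checked had a library far from the other 3. Among the risk genes these were Atp13a3 in Sox17-deletion/hypoxia (10.8 CPM in library 4), Tbx4 in controls (22.2 CPM in library 3), Ggcx in controls (15.8 CPM in library 4), and Tet2 in both groups (17.2 CPM in control library 1 and 11.0 CPM in Sox17-deletion/hypoxia library 3). Each is the only high library of its group. The rule used flags about 5% of groups of normally distributed values. It always flags a group with counts in only 1 library, as for Tet2 in both groups, Tbx4 in controls and Kcnk6 in Sox17-deletion/hypoxia. The 5% is therefore not the share to expect for genes of low level. Of the related genes, single control libraries stood apart for Oaz2 (610 CPM), Tbx3 (655 CPM, the lowest), Atf4 (356 CPM) and Pros1 (169 CPM). Single Sox17-deletion/hypoxia libraries stood apart for Slc3a2 (1651 CPM), Atf4 (415 CPM) and Kcnk6 (5.00 CPM), and for the summed macrophage, monocyte and neutrophil markers (656 CPM in library 1).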

How the results depend on the processing

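No risk gene was called under any of the alternatives run, and the count of risk genes without overlap stayed 0 with TMM-scaled sizes, without Rn45s and without any 1 library. The number of all genes called, 0 in the edgeR test, was 473 with DESeq2, 44 with limma-voom, 14 with quality weights, 17 with no filter, 4 among the 1641 genes of highest mean level, 1 with robust estimation, and 0 to 5 with a library left out (5 without Sox17-deletion/hypoxia library 1). The replicate block, which takes the numbers in the titles as pairs, called 0 genes. Same-numbered libraries did not deviate together (r = 0.0059, 0.020, -0.020 and 0.021), so the numbers were not used as pairs.

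The sign of Aqp1 turned with limma-voom (-0.015), with quality weights (-0.11) and with the replicate block (-0.00051), and a library left out gave -0.13 to 0.48. Eif2ak4 was -0.047 with quality weights. Among related genes, limma-voom, with and without quality weights in that order, gave -0.029 and -0.024 for Oaz2, -0.86 and -1.34 for Gcn1l1, -0.17 and -0.20 for Atf4, -0.51 and -0.67 for Prrg2, and -1.19 and -1.51 for Idh3a, and limma-voom gave -0.0074 for Gas6. The replicate block gave -0.81 for Gcn1l1, -0.10 for Atf4, -0.38 for Prrg2 and -0.18 for Idh3a. Upper-quartile factors gave -0.041 for Oaz2 and -0.095 for Atf4, and the fit of the 1641 genes -0.032 for Atf4. The cause was not tested.

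With a library left out, values ran from -8.67 to 8.03 for Tet2, -0.092 to 0.32 for Oaz2, -0.76 to 0.11 for Sat1, -1.64 to 0.11 for Eif2ak1, -0.61 to 1.43 for Gcn1l1, -0.51 to 0.28 for Atf4, -1.06 to 0.21 for Ddit3, -1.37 to 0.24 for Calu, -0.51 to 0.17 for Pros1, -0.28 to 0.60 for Prrg2, -0.14 to 1.47 for Tet3 and -0.37 to 0.10 for Kdr. The log2 ratio of summed markers ran from -0.065 to 0.18 for endothelial and -0.12 to 0.0079 for alveolar type 1. The deficit of detected genes ran from -1718 to -1488, and 3 against 4 libraries cannot reach the threshold. Of the risk genes, only Aqp1 was in the fit of the genes of highest mean level. For Atp13a3, Tbx4 and Tet2 the alternatives that keep the filter gave no value, and DESeq2 gave none for Tet2. The left-out-library values of these 3 genes, of the marker sums and of the detected genes, and Aqp1 as a share of endothelial markers, were chosen after seeing the data. Depth limits low levels, since one under the floor of 3 counts (0.232 to 0.429 CPM) cannot be set apart from 0. The floor covers counting error only, and values of 0 or 1 count also occurred far above it. They made up 25.9% of control and 50.3% of Sox17-deletion/hypoxia values for genes with a mean of 10 to 20 CPM.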
